A study of Homo sapiens with 12 samples.

Results

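The genes described here encode the proteins of the mitochondrial ribosome, taken as every row of the count table whose symbol is MRPL or MRPS followed by a number and an optional letter A to C, with at least 120 reads summed over the 12 libraries. Of 45372 rows in the table, 86 carried such a symbol and 74 passed, 46 with a large subunit symbol (MRPL) and 28 with a small subunit symbol (MRPS). All 74 also passed the filter on low counts used for testing. The rows left out were 8 second identifiers with a total of 0 reads, 6 of them for MRPS18B, 1 for MRPL45 and 1 for MRPS36, and 4 genes below the limit: MRPL53 with 6 reads, MRPL38 with 41, MRPS24 with 57 and MRPL23 with 73. The genes just inside the limit were MRPL39 with 307 reads and MRPS28 with 555. Symbols do not always follow structure. The products of MRPS18A and MRPS30 sit in the large subunit in structures of the human mitoribosome, and the product of MRPS36 is known as a subunit of the 2-oxoglutarate dehydrogenase complex. With the subunits assigned by structure, 48 genes belonged to the large and 25 to the small subunit.

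The mitochondrial ribosome translates the few messages encoded by mitochondrial DNA, all of them for subunits of the respiratory chain and the ATP synthase. Its ribosomal RNAs come from mitochondrial DNA, whereas all of its proteins are encoded in the nucleus, made on cytosolic ribosomes and imported. Some of these proteins have bacterial counterparts, such as MRPL3, MRPL11 and MRPS12, and others, such as MRPL52, MRPL57, MRPS27 and MRPS33, are later additions. Skin keratinocytes carry out much of their energy metabolism by glycolysis, but depend on respiration for parts of their differentiation.

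Expression was measured in HaCaT cells, an immortalized line of human skin keratinocytes of wild-type genotype per the labels. The irradiated cultures, blue_3, blue_14 and blue_42, had received 3, 14 or 42 sessions of 408 nm light from an LED at 4.6 mW per cm2, each session giving 50 J per cm2 in buffered saline, a dose set by its toxicity to these cells. The controls, dark_3, dark_14 and dark_42, are labelled as dark at the matching number of sessions, and the handling they shared with the irradiated plates is not described further in the labels. Sessions came 3 times a week for at most 14 weeks with regular passaging, so the number of sessions also counts time in culture. Each of the 6 groups had 2 libraries, named a and b here as in the labels, which do not state whether they came from separate cultures. The p-values therefore rest on library-to-library spread that may be technical. The libraries were 3′ tag libraries, in which a read marks the end of a transcript, so counts scaled to a common library size (CPM) can be compared between genes without a correction for length. In bulk RNA of this kind, fewer cells of a type and less RNA per cell cannot be told apart.

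The libraries held 2073160 to 8183941 reads assigned to genes, and the shallowest was blue_14 b. Reads of the 74 genes made up 0.503% to 0.623% of each library. The summed level of 9 keratinocyte markers lay between 4240 and 6970 CPM and all 9 were detected. The dark_42 libraries were lowest in it, at 4840 and 4240 CPM. A list of 9 neuronal genes summed to 202 and 234 CPM in blue_3 and 171 and 175 CPM in dark_3, to 119 and 91.2 CPM in blue_14 and 145 and 170 CPM in dark_14, and to 103 and 78.9 CPM in blue_42 and 98.1 and 59.7 CPM in dark_42, with all 9 detected in the series. NEFL, a neurofilament gene, was the most abundant of them. Without it the other 8 summed to 54.3 and 71.4 CPM in blue_3 and 25.4 and 28.9 CPM in dark_3, to 41.7 and 38.2 CPM in blue_14 and 86.5 and 75.8 CPM in dark_14, and to 23.6 and 22.7 CPM in blue_42 and 26.0 and 18.1 CPM in dark_42. NEFL was set apart after its values were seen. Fibroblast markers, all 7 detected, summed to 4.28 to 14.8 CPM. Leukocyte markers summed to between 0.288 and 3.44 CPM, with PTPRC between 0 and 0.767 CPM. Erythroid markers, of which HBG1 and HBG2 were at 0, summed to 44.1 CPM in dark_14 b and to between 0.951 and 11.3 CPM in the others. The part of these markers in the results below was not tested.

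The 74 genes lie on 21 chromosomes in GENCODE release 29 (GRCh38), and all are annotated as protein-coding. A protein-coding gene starts on the opposite strand within 1000 bp of the start of 29 of them (39.2%), against 13% of all 19951 protein-coding genes. MRPL46 and MRPS11, 1 from each subunit, form such a pair, with starts 34 bp apart on chromosome 15. Promoter sequence from RefSeq (GRCh38.p14), covering 250 bases before and 50 bases after the annotated start, was found for 66 of the 74. The 4 sequence motifs searched on both strands were GCGCANGCG for the factor NRF1, CCGGAAG for ETS factors, which include GABP, AAGATGGC for YY1, and CCAAT. Matches may overlap, since the last bases of the ETS motif are the first of the YY1 motif. ETS motifs were present in 27 of the 66 promoters (40.9%), against 10.3% of all 35116 promoters of the same length. These 35116 were not filtered by gene type, so they may include promoters of genes that are not protein-coding. YY1 motifs were present in 18 (27.3%, against 2.89%), and NRF1 motifs in 13 (19.7%, against 7.52%). CCAAT was present in 20 (30.3%, against 34.6%). At least 1 of the first 3 motifs was present in 44 of the 66 (66.7%), against 18.4% of all promoters. The median GC content was 60.3% in these promoters and 58.7% in all, and the median number of CpG was 24 against 14. A match is a description of the letters, not evidence of binding.

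The promoters of 4 genes on which the results below turn are shown from 5′ to 3′ in the direction of transcription, with motif matches on either strand in capitals. MRPL24, MRPL52 and MRPL57 were called lower after 14 than after 3 sessions in both arms, at an edgeR adjusted p under 0.05. MRPS21 is the 1 gene called between irradiated and dark cultures. For MRPL35, the fourth gene called lower in both arms, no promoter sequence was found. MRPL52 (chr14:22829637-22829936, plus strand) holds 2 YY1 matches that begin at -98 and -64 from the start and 1 ETS match at -5. MRPL57 (chr13:21176408-21176707, plus strand) holds 1 NRF1 match at -74. MRPS21 (chr1:150293611-150293910, plus strand) holds 2 ETS matches at -11 and 8 and 1 CCAAT match at -240. MRPL24 (chr1:156741039-156741338, minus strand) holds none of the 4 motifs.
MRPL52: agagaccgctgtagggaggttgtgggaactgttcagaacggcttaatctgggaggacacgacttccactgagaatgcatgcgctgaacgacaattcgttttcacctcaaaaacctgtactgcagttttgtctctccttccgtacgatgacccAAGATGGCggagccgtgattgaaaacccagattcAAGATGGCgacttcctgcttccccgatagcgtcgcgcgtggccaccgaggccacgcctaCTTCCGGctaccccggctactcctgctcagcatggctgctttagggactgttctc
MRPL57: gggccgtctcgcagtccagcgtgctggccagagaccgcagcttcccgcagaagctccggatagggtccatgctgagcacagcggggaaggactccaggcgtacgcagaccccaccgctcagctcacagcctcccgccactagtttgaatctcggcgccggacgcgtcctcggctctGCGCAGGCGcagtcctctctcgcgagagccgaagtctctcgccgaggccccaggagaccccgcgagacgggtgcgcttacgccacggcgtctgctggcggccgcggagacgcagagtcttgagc
MRPS21: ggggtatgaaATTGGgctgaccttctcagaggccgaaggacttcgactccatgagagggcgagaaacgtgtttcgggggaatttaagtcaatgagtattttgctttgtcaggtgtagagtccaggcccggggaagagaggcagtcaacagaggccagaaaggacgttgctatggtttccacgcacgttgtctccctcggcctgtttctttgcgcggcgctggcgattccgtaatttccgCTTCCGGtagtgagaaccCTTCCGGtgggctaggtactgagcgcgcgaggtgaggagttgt
MRPL24: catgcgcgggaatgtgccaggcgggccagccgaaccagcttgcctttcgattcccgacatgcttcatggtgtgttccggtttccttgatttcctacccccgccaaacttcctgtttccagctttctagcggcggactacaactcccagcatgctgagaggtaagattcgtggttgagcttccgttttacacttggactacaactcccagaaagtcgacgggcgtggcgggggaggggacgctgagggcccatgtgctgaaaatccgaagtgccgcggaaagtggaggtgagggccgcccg

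All 74 transcripts were readily detected apart from a few. Mean levels over the 12 libraries ran between 4.27 and 174.2 CPM in the large subunit, with a median of 62.7 CPM, and between 7.16 and 196.7 CPM in the small subunit, with a median of 82.2 CPM. The highest were MRPS18B at 196.7 CPM, MRPS16 at 185.3 CPM and MRPS5 at 183.0 CPM in the small subunit, and MRPL41 at 174.2 CPM, MRPL21 at 169.4 CPM and MRPL51 at 168.7 CPM in the large. The lowest were MRPL39 at 4.27 CPM, MRPL2 at 16.2 CPM and MRPL44 at 17.9 CPM in the large subunit, and MRPS28 at 7.16 CPM, MRPS17 at 17.9 CPM and MRPS23 at 29.9 CPM in the small. Across libraries the levels were close: the highest library exceeded the lowest by a factor of 1.17 for MRPS9 and 2.14 for MRPS15, with a median of 1.53, and by 5.08 for the scarce MRPL39. The paralogues MRPS18A, MRPS18B and MRPS18C, which encode proteins of one family placed at different sites of the ribosome, had means of 47.4, 196.7 and 84.1 CPM. Some counts are uncertain because no source used here gives the strand setting of the counting. Another counted gene overlaps the last 500 bp of MRPS16 and MRPL33 on the same strand. On the opposite strand this holds for 12, among them MRPL20, MRPL37, MRPL43, MRPS7, MRPS14 and MRPS25, each of which is named below. Pseudogene rows exist for 35 of the 74, and none of these held over 3.34% of the reads of its parent gene.

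**Figure D1:**
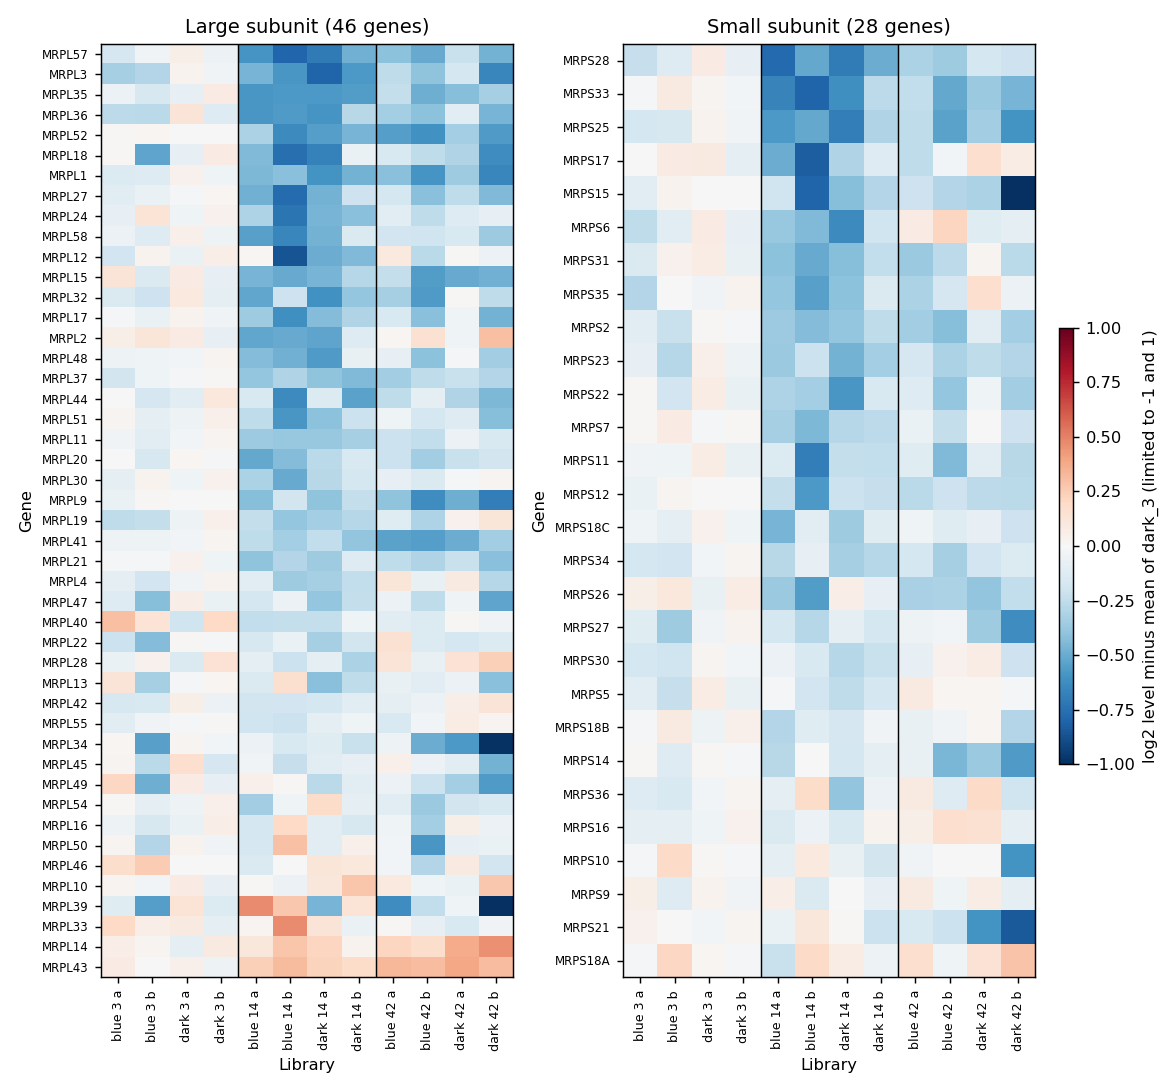
Level of each of the 74 genes in each of the 12 libraries, as the log2 difference from the mean of the 2 dark_3 libraries, limited to -1 and 1 (blue: lower, red: higher), with large subunit genes on the left, small subunit genes on the right and each panel ordered by the mean of the 4 libraries at 14 sessions. Most rows are blue in the 4 libraries at 14 sessions, whichever the light, while MRPL43 and MRPL14 stand at the bottom with higher levels.

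The first question was whether blue light changed these genes at a matched number of sessions. In the 3 comparisons at matched sessions 1 gene of 74 passed the test, and in 1 comparison only. After 3 sessions none of the 74 was called at an edgeR adjusted p under 0.05, where 0.0155% of all 12878 genes were. An unadjusted p under 0.05 was found for 3 of the 74 and for 891 of the 12878 genes. The 3 were MRPL22, a protein near the peptide exit tunnel, MRPL3 and MRPL19. MRPL22 averaged 58.1 CPM in blue_3 and 72.6 CPM in dark_3, a log2 difference of -0.32 ± 0.12 (SE, adjusted p = 0.617). MRPL3 averaged 109.7 CPM in blue_3 and 136.5 CPM in dark_3 (log2 difference -0.32 ± 0.13, adjusted p = 0.645). MRPL19 averaged 46.8 CPM in blue_3 and 55.5 CPM in dark_3 (log2 difference -0.25 ± 0.12, adjusted p = 0.719). The log2 difference was below 0 for 57 of the 74 genes, 37 of 46 in the large and 20 of 28 in the small subunit, with a median of -0.08. Over all tested genes 47.6% were below 0 and the median was 0.01. With the libraries thinned to equal depth, 47 of the genes were below 0. Both blue_3 libraries lay below both dark_3 libraries for 28 of the 74 (37.8%) and above them for 2 (2.7%), where this held for 19.9% and 23.7% of all genes.

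After 14 sessions none of the 74 was called, and neither was any other gene (0% of 12878 by edgeR, with 758 at an unadjusted p under 0.05 and 2 called by DESeq2). Of the 74, 3 had an unadjusted p under 0.05, all lower in blue_14. MRPS26 averaged 119.1 CPM in blue_14 and 163.5 CPM in dark_14 (log2 difference -0.45 ± 0.12, adjusted p = 0.709). MRPL20, whose product has a bacterial counterpart in the large subunit, averaged 91.2 CPM in blue_14 and 109.4 CPM in dark_14 (log2 difference -0.27 ± 0.12, adjusted p = 0.818). MRPL58, a peptidyl-tRNA hydrolase built into the large subunit, averaged 43.2 CPM in blue_14 and 53.3 CPM in dark_14 (log2 difference -0.32 ± 0.14, adjusted p = 0.834). The median difference was -0.03, with 43 of 74 genes below 0, against 51.4% of all genes.

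After 42 sessions MRPS21 was higher in irradiated than in dark cultures, 1 gene of 74, against 1.23% of all genes called in either direction and 0.839% called higher. MRPS21 (chr1:150293720-150308979, plus strand) encodes a small subunit protein with a bacterial counterpart, and its promoter with the 2 ETS matches is printed above. Its level was 141 and 135 CPM in the blue_42 libraries and 103 and 87.3 CPM in the dark_42 libraries, a log2 difference of 0.53 ± 0.12 (edgeR adjusted p = 0.0230). All 4 of these libraries lay below the 162 and 157 CPM of blue_3 and the 154 and 159 CPM of dark_3, and the 2 dark_42 libraries were the lowest of the 12. The call was lost without dark_3 a, dark_3 b, dark_42 b, blue_42 a or blue_42 b, while the log2 difference lay between 0.42 and 0.66 over all 12 fits that left out 1 library. Without dark_42 a the number called rose to 4, and without blue_14 b to 2. The call was also lost when only the 4 libraries compared were fitted. Over all settings the adjusted p lay between 0.00247 and 0.231.

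Other genes showed the same order without passing the test. MRPS27, a pentatricopeptide repeat protein of the small subunit, stood at 122 and 124 CPM in blue_42 and 99.0 and 82.1 CPM in dark_42 (log2 difference 0.44 ± 0.12, adjusted p = 0.0687). MRPL34, a small protein with a bacterial counterpart in the large subunit, stood at 50.1 and 36.8 CPM in blue_42 and 34.8 and 26.1 CPM in dark_42 (log2 difference 0.51 ± 0.18, adjusted p = 0.210). For both genes the blue_42 libraries lay above the dark_42 libraries, which were the 2 lowest of the series, with blue_3 b just above them at 99.1 CPM for MRPS27 and 35.6 CPM for MRPL34. The median over the 74 genes was -0.01 with 39 below 0, against 50.5% of all genes. It was -0.04 in the large and 0.03 in the small subunit, and the small subunit value was -0.02 when libraries were scaled by total counts, so no direction is given for it. The summed level of the 9 keratinocyte markers was 5770 and 5360 CPM in blue_42 and 4840 and 4240 CPM in dark_42. SFN, KRT5, KRT14 and PERP were higher in both blue_42 libraries, and the other keratinocyte markers overlapped between these groups.

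Whether the light effect itself changed with the number of sessions was tested by the interaction terms. None of the 74 genes was called in any of these, against 0.0388% of all genes for 14 against 3 sessions, 0.435% for 42 against 3 and 0.0544% for 42 against 14. For 42 against 3 sessions the difference between the light effects was 0.67 ± 0.17 for MRPS27 (adjusted p = 0.0868), 0.51 ± 0.16 for MRPS21 (adjusted p = 0.215) and 0.74 ± 0.25 for MRPL34 (adjusted p = 0.270). MRPS27 was 1 of 2 genes called in this term without blue_3 a or without dark_42 a. For 14 against 3 sessions the smallest p-values belonged to MRPS26, at -0.52 ± 0.16 (adjusted p = 0.333), MRPL22, at 0.45 ± 0.19 (adjusted p = 0.525), and MRPL3, at 0.47 ± 0.20 (adjusted p = 0.541). For 42 against 14 sessions they belonged to MRPS27, at 0.54 ± 0.17 (adjusted p = 0.387), MRPS26, at 0.44 ± 0.16 (adjusted p = 0.460), and MRPS21, at 0.41 ± 0.17 (adjusted p = 0.538).

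**Figure D2:**
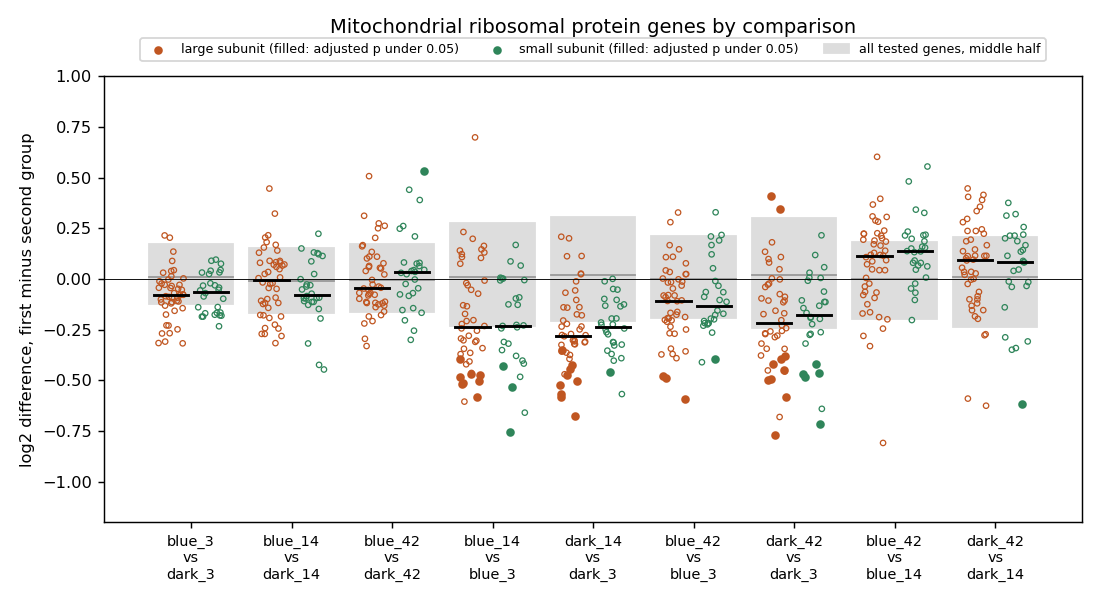
Log2 difference of each gene in 9 comparisons, named as first against second group, with large subunit genes in orange and small subunit genes in green (filled: adjusted p under 0.05; black lines: medians; grey boxes: the interquartile range of all tested genes). The medians lie near 0 in the 3 comparisons of blue with dark on the left and below 0 in the 4 comparisons of 14 or 42 with 3 sessions.

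The second question was how these genes moved with the number of sessions within each arm. Summed over the 74 genes, the level was 6073 and 5971 CPM in blue_3 and 6328 and 6306 CPM in dark_3. It was 5236 and 5147 CPM in blue_14 and 5130 and 5462 CPM in dark_14, and 5711 and 5352 CPM in blue_42 and 5751 and 5144 CPM in dark_42. All 4 libraries at 14 sessions lay below all 4 at 3 sessions, and so did all 4 libraries at 42 sessions, which overlapped with those at 14. The large subunit genes summed to 3418 ± 102 CPM in blue_3 and 3597 ± 9.67 CPM in dark_3, 2909 ± 44.2 CPM in blue_14 and 2939 ± 147 CPM in dark_14, and 3060 ± 201 CPM in blue_42 and 3077 ± 204 CPM in dark_42 (SD, n = 2 each). The small subunit genes summed to 2604 ± 29.4 CPM in blue_3 and 2720 ± 5.69 CPM in dark_3, 2283 ± 18.3 CPM in blue_14 and 2357 ± 87.8 CPM in dark_14, and 2472 ± 52.3 CPM in blue_42 and 2370 ± 226 CPM in dark_42 (SD, n = 2 each). In both subunits all 4 libraries at 14 sessions and all 4 at 42 lay below all 4 at 3. For single genes, all 4 libraries at 14 sessions were below all 4 at 3 sessions for 21 large and 11 small subunit genes, and above them for 1 large and 0 small subunit genes. The 32 genes below are 43.2% of the 74, where 1429 of all 12878 genes (11.1%) were below and 1544 above.

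**Figure D3:**
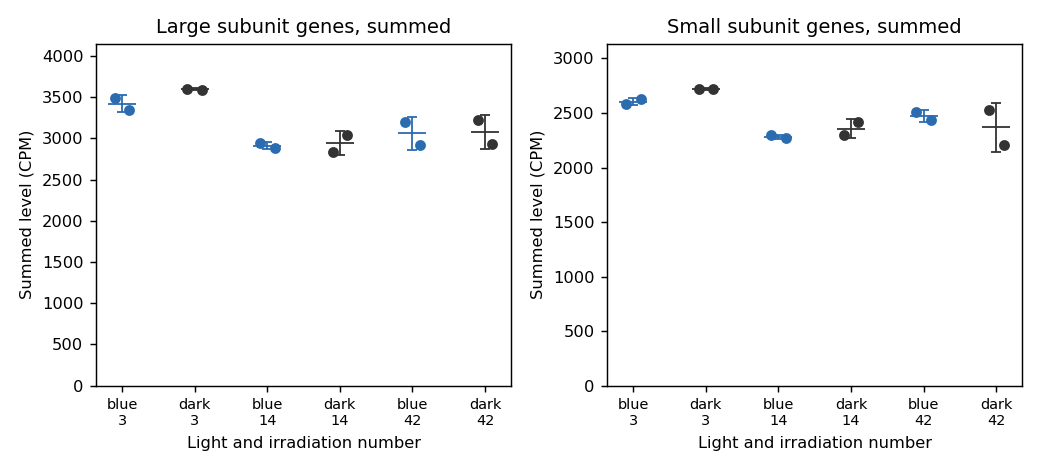
Summed level in CPM of the 46 large subunit genes (left) and the 28 small subunit genes (right) in each library, by light and number of sessions, with points for the 2 libraries of a group and a bar for their mean with SD. Both sums are lower in the 4 libraries at 14 sessions than in the 4 at 3 sessions.

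In irradiated cultures 11 of the 74 genes were called lower after 14 than after 3 sessions, against 2.60% of all genes. None of the 74 was called higher. The 11 included 8 of the large and 3 of the small subunit. MRPS33 fell the most, with 41.4 and 37.7 CPM in blue_14 and 64.5 and 69.8 CPM in blue_3, a log2 difference of -0.75 ± 0.15 (edgeR adjusted p = 0.00613). MRPL57 stood at 92.5 and 80.2 CPM in blue_14 and 124 and 136 CPM in blue_3 (log2 difference -0.58 ± 0.13, adjusted p = 0.0128). MRPS26 stood at 127 and 111 CPM in blue_14 and 170 and 176 CPM in blue_3 (log2 difference -0.53 ± 0.12, adjusted p = 0.0116). In none of these 3 did the libraries of the groups overlap. MRPL24, a protein near the exit tunnel, was at -0.52, MRPL27 at -0.51 and MRPL58 at -0.50. MRPL15 was at -0.48, MRPL35 at -0.48, MRPL52 at -0.47, MRPS7, in which mutations cause a combined deficiency of oxidative phosphorylation, at -0.43 and MRPL20 at -0.40, with adjusted p between 0.0266 and 0.0468 for these 8. Below 0 were 57 of the 74, 35 of 46 in the large and 22 of 28 in the small subunit, against 48.9% of all genes. The medians were -0.24 in the large and -0.23 in the small subunit, and 0.01 over all genes. Both blue_14 libraries lay below both blue_3 libraries for 43 of the 74 (58.1%), where this held for 25.5% of all genes.

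The number called depended on single libraries more than the direction did. It was 4 without dark_3 a, dark_3 b or blue_3 a and 0 without blue_3 b or without blue_14 b, the shallowest library. It was 7 after thinning to equal depth. Between 55 and 62 genes stayed below 0 over the 12 fits that left out 1 library, and 51 after thinning. MRPS33, MRPS26, MRPL24 and MRPL57 each kept their call in 10 of the 12 fits and lost it without blue_3 b or blue_14 b. The keratinocyte sum, at 6970 and 6020 CPM in blue_14 and 6830 and 6240 CPM in blue_3, overlapped between these groups, but its genes did not move together. TP63, at 77.6 and 77.8 CPM in blue_14 and 48.9 and 36.1 CPM in blue_3, PERP, SFN and DSG3 were higher in both blue_14 libraries. DSP, at 1240 and 1120 CPM in blue_14 and 1290 and 1380 CPM in blue_3, was lower in both. The other keratinocyte markers overlapped. The neuronal sum was lower in both blue_14 libraries, with and without NEFL.

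In dark cultures 10 of the 74 genes were called lower after 14 than after 3 sessions, against 4.61% of all genes. None of the 74 was called higher. In this comparison 9 of the 10 belonged to the large subunit. MRPL3 fell the most, with 78.2 and 91.7 CPM in dark_14 and 140 and 133 CPM in dark_3, a log2 difference of -0.67 ± 0.14 (edgeR adjusted p = 0.00357). It encodes a core protein of the large subunit in which mutations cause a combined deficiency of oxidative phosphorylation. MRPL57 stood at 85.1 and 99.8 CPM in dark_14 and 145 and 134 CPM in dark_3 (log2 difference -0.58 ± 0.12, adjusted p = 0.00460). MRPL35, with a bacterial counterpart, stood at 56.4 and 57.1 CPM in dark_14 and 79.4 and 89.0 CPM in dark_3 (log2 difference -0.57 ± 0.12, adjusted p = 0.00497). In each of these 3 genes the libraries of the groups were well apart. MRPL1, a protein of the mobile L1 stalk, had a difference of -0.52 ± 0.12 (adjusted p = 0.00960). MRPL52 had 86.2 and 91.7 CPM in dark_14 and 127 and 126 CPM in dark_3 (log2 difference -0.50 ± 0.12, adjusted p = 0.00985). The other 5 were MRPL32 at -0.47, MRPS25 at -0.46, MRPL24 at -0.44, MRPL37 at -0.43 and MRPL11, a protein of the site where translation factors bind, at -0.35, with adjusted p between 0.0147 and 0.0475. Beyond the calls, 67 of the 74 log2 differences were below 0, 40 of 46 in the large and 27 of 28 in the small subunit, against 47.9% of all genes. The medians were -0.28 in the large subunit, -0.24 in the small subunit and 0.02 over all genes. Both dark_14 libraries lay below both dark_3 libraries for 56 of the 74 genes (75.7%), where this held for 30.0% of all genes.

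Here too the count depended on single libraries. It was 1 without dark_3 a, 2 without dark_3 b, 1 without dark_14 a and 18 without blue_14 b, and 2 in libraries thinned to equal depth. The number of genes below 0 stayed between 65 and 70 over the 12 fits that left out 1 library and was 63 after thinning. MRPL35 kept its call in 11 of those 12 fits and lost it without dark_3 b, and MRPL3 and MRPL57 kept theirs in 10, losing it without dark_3 a or dark_14 a. The keratinocyte sum was lower in both dark_14 libraries, at 5640 and 5880 CPM in dark_14 and 6140 and 6340 CPM in dark_3. Its genes did not move together. KRT6A, at 312 and 348 CPM in dark_14 and 658 and 751 CPM in dark_3, and KRT5 were lower in both dark_14 libraries. KRT17, at 724 and 690 CPM in dark_14 and 548 and 573 CPM in dark_3, and TP63 were higher in both. The other keratinocyte markers overlapped between these groups. The neuronal sum was lower in both dark_14 libraries, at 145 and 170 CPM in dark_14 and 171 and 175 CPM in dark_3. NEFL alone stood at 58.7 and 94.7 CPM in dark_14 and 146 and 146 CPM in dark_3. Without NEFL the neuronal sum was higher in both dark_14 libraries. The fibroblast sum was higher there, at 14.3 and 14.8 CPM in dark_14 and 4.28 and 4.90 CPM in dark_3.

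The irradiated and the dark series share no library, so they can be set side by side. For 14 against 3 sessions, 53 of the 74 genes were below 0 in both arms (71.6%), 32 of 46 in the large and 21 of 28 in the small subunit, 3 were above 0 in both and 18 differed in sign. Over all tested genes 32.8% were below 0 in both arms. The genes called lower in both arms were MRPL24 (chr1:156737303-156741590, minus strand), MRPL35 (chr2:86199355-86213794, plus strand), MRPL52 (chr14:22829879-22835037, plus strand) and MRPL57 (chr13:21176645-21179084, plus strand). They made up 36.4% of the calls in irradiated and 40% of the calls in dark cultures. For all genes called lower, the shared calls made up 39.7% of the irradiated and 22.4% of the dark calls. After thinning to equal depth, MRPL24 and MRPL57 lost their calls in both arms, MRPL35 in irradiated and MRPL52 in dark cultures. With only the compared libraries fitted, MRPL24, MRPL35 and MRPL52 lost theirs in irradiated cultures. The Spearman correlation of the log2 differences between arms was 0.495 over the 74 genes and 0.496 over the 12878 genes, and the points share the kit, the sequencing depth of their group and the normalization, so this is a description only. The correlation was therefore no higher than over all genes.

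**Figure D4:**
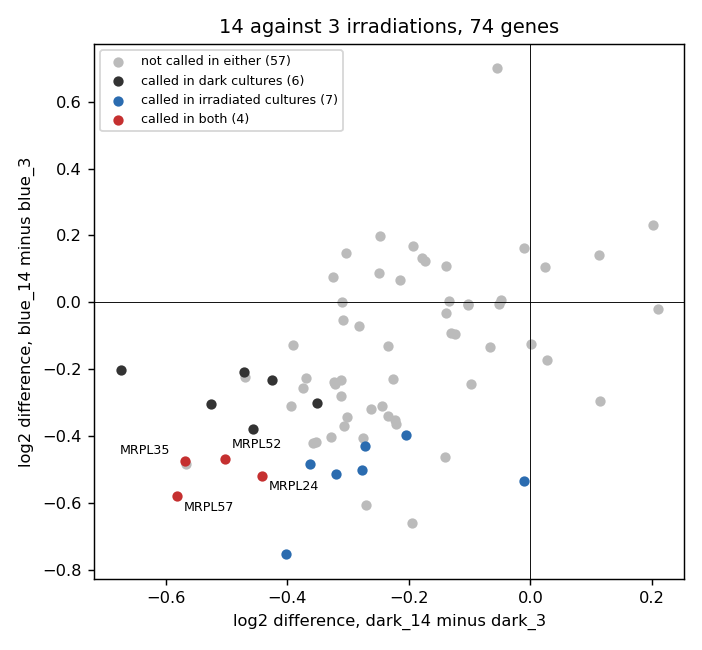
Log2 difference between 14 and 3 sessions for the 74 genes in dark cultures (horizontal axis) and in irradiated cultures (vertical axis), with colours for genes called in neither, 1 or both arms. The lower left quadrant holds 53 genes, among them the 4 called in both arms, which are named.

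The comparisons of 42 with 3 sessions use the same dark_3 or blue_3 libraries as those at 14 sessions, so the values stand side by side and are not independent. In irradiated cultures MRPL52, MRPL41, MRPL9 and MRPS26 were called lower after 42 than after 3 sessions, 4 of 74. Of all genes 3.39% were called lower, so the share called was close to that of all genes. MRPL52 stood at 86.4 and 83.0 CPM in blue_42 and 127 and 128 CPM in blue_3 (log2 difference -0.59 ± 0.12, edgeR adjusted p = 0.00331). MRPL41, reported to bind the survival factor BCL2, stood at 144 and 143 CPM in blue_42 and 201 and 201 CPM in blue_3 (log2 difference -0.49 ± 0.11, adjusted p = 0.00656). For both genes the libraries of a group lay close together and the groups far apart. MRPL9 was at -0.48 ± 0.12 (adjusted p = 0.0162) and MRPS26 at -0.40 ± 0.11 (adjusted p = 0.0318). The medians were -0.11 in the large and -0.13 in the small subunit, with 55 of 74 genes below 0 against 50.2% of all genes. The count was 0 without blue_42 b, 2 without blue_3 a or blue_3 b and 2 after thinning. The keratinocyte and the neuronal sums were lower in both blue_42 libraries than in both blue_3 libraries too, the neuronal sum with and without NEFL. Of the keratinocyte markers, SFN, DSP, KRT17 and KRT6A were lower in both blue_42 libraries. TP63 was higher in both, at 62.9 and 56.7 CPM in blue_42 and 48.9 and 36.1 CPM in blue_3. KRT5, KRT14, PERP and DSG3 overlapped between these groups.

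In dark cultures 13 of the 74 genes were called lower after 42 than after 3 sessions, against 8.26% of all genes. Of the 13, 8 were in the large and 5 in the small subunit. MRPL43 and MRPL14 were called higher, against 9.47% of all genes. MRPL34 had the largest log2 difference, at 34.8 and 26.1 CPM in dark_42 and 53.0 and 51.0 CPM in dark_3 (log2 difference -0.77 ± 0.18, edgeR adjusted p = 0.00794). MRPS21 followed at 103 and 87.3 CPM in dark_42 and 154 and 159 CPM in dark_3 (log2 difference -0.72 ± 0.12, adjusted p = 0.000292). MRPL9, whose bacterial counterpart is an elongated protein on the side of the large subunit, stood at 108 and 94.3 CPM in dark_42 and 153 and 151 CPM in dark_3 (log2 difference -0.58 ± 0.12, adjusted p = 0.00209). The groups of these 3 genes did not overlap. MRPL1 and MRPL15 were at -0.50 and -0.49, MRPS27 at -0.48, MRPS25 at -0.47, MRPS14 at -0.46, MRPL52 at -0.45, MRPL41 and MRPS33 both at -0.42, MRPL3 at -0.39 and MRPL35 at -0.38, with adjusted p between 0.00740 and 0.0459. MRPL14 stood at 82.9 and 88.0 CPM in dark_42 and 60.2 and 68.3 CPM in dark_3 (log2 difference 0.41 ± 0.12, adjusted p = 0.0185). MRPL43, which starts 148 bp from TWNK, the gene of the mitochondrial DNA helicase, stood at 71.8 and 67.8 CPM in dark_42 and 56.8 and 53.0 CPM in dark_3 (log2 difference 0.35 ± 0.11, adjusted p = 0.0353). Below 0 were 59 of the 74, with medians of -0.22 in the large and -0.18 in the small subunit against 0.02 over all genes. The 15 calls became 2 without dark_3 a, 4 without dark_3 b, 3 without dark_42 b and 6 after thinning, while MRPS21 and MRPL9 kept their calls in all 12 fits that left out 1 library and MRPL43 in 5 of them. The keratinocyte sum was also lower in both dark_42 libraries than in both dark_3 libraries, but its genes did not move together. KRT17, at 699 and 639 CPM in dark_42 and 548 and 573 CPM in dark_3, and TP63 were higher in both dark_42 libraries. SFN, at 930 and 745 CPM in dark_42 and 1430 and 1410 CPM in dark_3, was lower in both. So were KRT5, KRT14, KRT6A, PERP and DSP, and DSG3 overlapped between these groups. The neuronal sum was lower in both dark_42 libraries too, at 98.1 and 59.7 CPM in dark_42 and 171 and 175 CPM in dark_3. NEFL alone stood at 72.1 and 41.6 CPM in dark_42 and 146 and 146 CPM in dark_3. Without NEFL the neuronal sum overlapped between these groups. MRPL52, MRPL41 and MRPL9 were called lower in both arms, 75% of the irradiated and 23.1% of the dark calls, against 51.8% and 21.2% for all genes. In all, 49 of the 74 (66.2%) were below 0 in both arms, against 33.1% of all genes.

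Between 42 and 14 sessions the genes as a whole were slightly above 0. The median was 0.12 in irradiated cultures, with 54 of 74 above 0, and 0.09 in dark cultures, with 48 of 74 above 0, against 0.00 and 0.01 over all genes. None was called in irradiated cultures, where 0.155% of all genes were called lower and 0.0854% higher. The smallest p-value there belonged to MRPS6, at 53.9 CPM in blue_42 and 36.6 CPM in blue_14 (log2 difference 0.56 ± 0.15, adjusted p = 0.121), followed by MRPL2 at 0.60 ± 0.21 (adjusted p = 0.241) and MRPL58 at 0.40 ± 0.14 (adjusted p = 0.242). In dark cultures MRPS21 was called lower, against 5.23% of all genes, with 103 and 87.3 CPM in dark_42 and 158 and 135 CPM in dark_14 (log2 difference -0.61 ± 0.12, adjusted p = 0.00327). Without dark_14 a this call was lost. The number called was 5 without dark_42 a, 3 without blue_14 a or blue_14 b and 2 without blue_3 a, blue_3 b or dark_42 b. MRPL19 was at 0.39 ± 0.12 (adjusted p = 0.0535) and MRPL34 at -0.59 ± 0.19 (adjusted p = 0.0691).

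**Figure D5:**
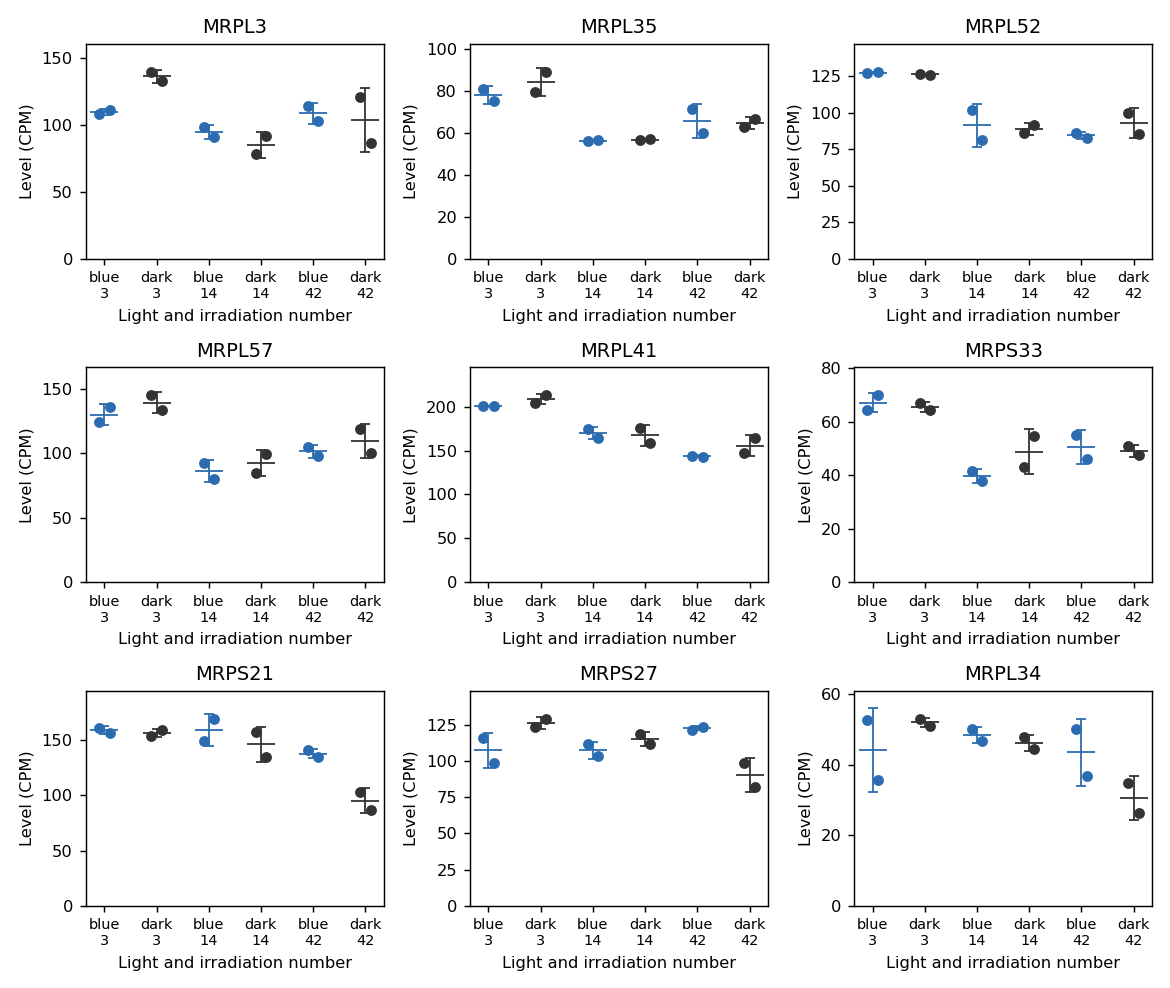
Level in CPM of 9 genes in each library, with points for the 2 libraries of a group, a bar for the mean and SD, blue for irradiated and black for dark cultures. MRPL3, MRPL35, MRPL52, MRPL57, MRPL41 and MRPS33 are lower at 14 than at 3 sessions on both sides, whereas MRPS21, MRPS27 and MRPL34 are lowest in dark_42.

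Of the 74 genes, 25 were called in at least 1 of the 12 comparisons, 18 of the large and 7 of the small subunit. These are 33.8%, close to the 29.6% of all genes. In the 4 comparisons with 3 sessions 23 were called lower in at least 1 (31.1%, against 13.2% of all genes) and 12 in at least 2 (16.2%, against 4.07%). MRPL52 was called lower in all 4, MRPL35 in 3, and 10 others in 2. Within each arm these comparisons share the libraries at 3 sessions, so the calls are not independent. In each of the 4 the median standard error was smaller for the 74 genes than for all genes. For dark_14 against dark_3 it was 0.131 for the 74 and 0.176 for all genes. The part of this in the shares called was not tested. After thinning to equal depth MRPL52 lost its call in both dark comparisons. With only the compared libraries fitted, it lost the call for blue_14 against blue_3. The mean level of MRPL52 was 128 CPM in blue_3 and 126 CPM in dark_3, 91.4 CPM in blue_14 and 89.0 CPM in dark_14, and 84.7 CPM in blue_42 and 92.7 CPM in dark_42.

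Of the 17 genes of known role that were to be described whatever their values, 12 were called in none of the 12 comparisons. MRPL12, which binds the mitochondrial RNA polymerase, had 55.4 and 30.1 CPM in blue_14 and 47.9 and 55.9 CPM in blue_3, and 38.7 and 40.1 CPM in dark_14 and 52.2 and 57.2 CPM in dark_3. Its log2 difference between 14 and 3 sessions was -0.22 ± 0.20 in irradiated cultures (adjusted p = 0.548) and -0.47 ± 0.19 in dark cultures (adjusted p = 0.110), and the 2 blue_14 libraries fell on either side of a blue_3 library. MRPS12, a protein of the decoding site, was at -0.35 ± 0.14 in irradiated cultures (adjusted p = 0.126) and -0.22 ± 0.12 in dark cultures (adjusted p = 0.253). MRPS22, MRPL44 and MRPS16 are genes in which mutations cause a combined deficiency of oxidative phosphorylation. MRPS22 was at -0.24 in irradiated and -0.32 in dark cultures, and MRPL44, which has a ribonuclease III fold, at -0.25 in irradiated and -0.37 in dark cultures. MRPS16, a small subunit protein, had log2 differences of -0.01 ± 0.12 in irradiated cultures (adjusted p = 0.985) and -0.05 ± 0.11 in dark cultures (adjusted p = 0.815). MRPL18, whose bacterial counterpart binds 5S ribosomal RNA, was at -0.34 in irradiated and -0.30 in dark cultures. MRPS5 was at 0.07 in irradiated and -0.21 in dark cultures, MRPS30 at 0.09 and MRPS36 at 0.17 in irradiated cultures, and these 2 at -0.25 and -0.19 in dark cultures. Among the paralogues, MRPS18A was at -0.12 in irradiated and 0.00 in dark cultures, MRPS18B at -0.24 in irradiated and -0.10 in dark cultures, and MRPS18C at -0.23 in both. The adjusted p of these 7 genes, MRPS22 and MRPL44 was 0.164 or higher in these comparisons.

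Other genes of mitochondrial translation were counted by list. No gene of the 6 lists of mitochondrial translation was called between irradiated and dark cultures at any number of sessions. For 14 against 3 sessions, 2.60% of all genes were called lower and 3.62% higher in irradiated cultures, and 4.61% lower and 8.11% higher in dark cultures, as the background for the counts by list. Among the mitochondrial aminoacyl-tRNA synthetases reported here, after 14 against 3 sessions, VARS2 was lower in irradiated cultures, at -0.93 ± 0.19 (adjusted p = 0.00840), and EARS2 in dark cultures, at -0.72 ± 0.20 (adjusted p = 0.0258). In the same comparison, of 16 translation factors and partners, GFM1, an elongation factor, SLIRP, which stabilizes mitochondrial messages, and MTIF2, an initiation factor, were lower in irradiated cultures. In dark cultures GFM1 and SLIRP were lower and OXA1L, which inserts new proteins into the inner membrane, was higher, at 0.45 ± 0.12 (adjusted p = 0.0183). Of 25 assembly and RNA modification factors, none was called in irradiated and 4 were lower in dark cultures: C1QBP, FASTKD2, MALSU1 and MTERF3, which have roles in building the ribosome. Of 5 ribosome proteins without an MRP symbol, AURKAIP1 was lower in irradiated cultures, at -0.63 ± 0.16 (adjusted p = 0.0301), and GADD45GIP1 in dark cultures, at -0.39 ± 0.12 (adjusted p = 0.0348). SSBP1, which coats single-stranded mitochondrial DNA, was lower in both arms, 1 of 12 genes of mitochondrial transcription and genome upkeep, at -0.60 ± 0.13 in irradiated (adjusted p = 0.0109) and -0.42 ± 0.13 in dark cultures (adjusted p = 0.0342). Among 9 tested regulators of mitochondrial biogenesis, MYC alone was called in either arm, higher in blue_14 than in blue_3 at 27.5 CPM against 8.97 CPM (log2 difference 1.56 ± 0.22, adjusted p = 0.000406).

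For 42 against 3 sessions, SSBP1 was lower in both arms, at -0.48 ± 0.13 in irradiated (adjusted p = 0.0235) and -0.50 ± 0.13 in dark cultures (adjusted p = 0.00980). In this comparison 3.39% of all genes were called lower and 4.40% higher in irradiated cultures, and 8.26% lower and 9.47% higher in dark cultures. In irradiated cultures TWNK and MYC were also higher, at 0.80 ± 0.16 (adjusted p = 0.00333) and 0.92 ± 0.20 (adjusted p = 0.00637). In dark cultures C1QBP, METTL17, RPUSD4, MTFMT and NRF1 were lower, and YBEY was higher. NRF1, whose motif is found in 13 of the promoters examined, had 8.52 CPM in dark_42 and 14.6 CPM in dark_3 (log2 difference -0.77 ± 0.19, adjusted p = 0.00741). Among the mitochondrial ribosomal protein genes called lower in dark_42 than in dark_3, MRPS33 was the only gene with an NRF1 match. For MRPL15 and MRPL35, also called lower, no promoter sequence was found. Of the genes called higher, MRPL14 had a match and MRPL43 had none. A part of NRF1 in these differences was not tested. Between 42 and 14 sessions in dark cultures MTERF3, MGME1 and GADD45GIP1 were higher and RPUSD4 was lower, where 1.81% of all genes were called higher and 5.23% lower.

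The genes of cytosolic ribosomes were counted in the same way. For 14 against 3 sessions, 57 of 82 tested were below 0 in irradiated cultures with a median of -0.06, and 38 of 82 in dark cultures with a median of 0.01. Both arms were below 0 for 29 of the 82 (35.4%), against 53 of the 74 (71.6%) here. The difference between the lists was not tested. The 15 detected genes of mitochondrial DNA, which the mitochondrial ribosome translates or contains, were counted too, and their difference from the 74 genes was not tested. For 14 against 3 sessions 4 were called higher in irradiated cultures (against 3.62% of all genes) and 1 in dark cultures (against 8.11%). None was called lower, and the medians were 0.34 in irradiated and 0.20 in dark cultures. For 42 against 3 sessions in irradiated cultures, 4 were called higher (against 4.40% of all genes) and MT-RNR1 was called lower (against 3.39%). The median was 0.32, with 4 of 15 below 0. In dark cultures MT-ND1, MT-ND2, MT-ND6 and MT-RNR1 were called lower (against 8.26% of all genes) and none was called higher (against 9.47%). The median there was -0.28 with 14 of 15 below 0, the same side of 0 as the medians of the 74 genes. After 42 sessions MT-CO1, MT-ND4 and MT-ND5 were higher in irradiated than in dark cultures, against 0.839% of all genes called higher, 14 of the 15 were above 0 and the median was 0.51, whereas the 74 nuclear genes had a median of -0.01.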

How the data were processed

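The authors deposited raw read counts for each gene in the 12 libraries. The libraries are QuantSeq 3′ FWD per the labels' protocols, and STAR, featureCounts and GRCh38 are named in the submitters' processing notes. No source used here gives versions, the annotation release, the strand setting or the use of molecular identifiers. From these counts, edgeR 4.0.16 in R 4.3.3 fitted 1 robust quasi-likelihood model with a mean for each of 6 groups over all 12 libraries (TMM scaling, filterByExpr at a minimum count of 10, 12878 genes kept, 6 residual degrees of freedom). Each of 12 comparisons was tested two-sided, with Benjamini-Hochberg adjustment over all genes, and genes with an adjusted p under 0.05 count as called. Errors of log2 differences are standard errors. The common coefficient of variation was 9.41%.

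The genes, lists and rule for named genes were chosen with earlier results of these data known. Some genes of the lists are not reported here. The rule names, in each comparison, up to 10 called genes in each direction, the 3 smallest p-values where under 3 genes were called, 17 genes of known role, and the 3 highest and lowest by level in each subunit. The 2 libraries of each group differed by more than counting noise, so none was taken as a copy of the other. The chi-square per degree of freedom was 1.64 in dark_3, the group closest to counting noise, and 5.05 to 8.57 in the other groups. This spread does not show whether the 2 libraries of a group came from separate cultures. Scripts were tested on simulated data. Alternatives were DESeq2 1.42.0, other scalings and filters, a replicate block, fits of only the compared libraries, leaving out each library, and thinning to equal depth.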

Additional observations from a re-analysis of the deposited data

How the results depend on the processing

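Among the settings tried, no called difference of a named gene changed sign. The number of the 74 genes called stayed at 0 under every setting for blue_3 against dark_3, blue_14 against dark_14 and the light effect at 14 against 3 and at 42 against 14 sessions. For blue_42 against dark_42 (1 gene) it ranged between 0 and 4 over fits that left out 1 library, and was 3 when genes were not filtered by count and 0 when the model held the 4 compared libraries alone. For the light effect at 42 against 3 sessions (0 genes) the range was 0 to 2, with 1 by DESeq2 and 2 without the filter. For dark_14 against dark_3 (10) the range was 1 to 18, with 19 without the filter, 27 with only the libraries compared and 2 after thinning. For dark_42 against dark_3 (15) the range was 2 to 22, with 6 after thinning. For dark_42 against dark_14 (1) the range was 0 to 5, with 4 without the filter. For blue_14 against blue_3 (11) the range was 0 to 13, with 18 without the filter, 3 with only the libraries compared and 7 after thinning. For blue_42 against blue_3 (4) the range was 0 to 6, with 8 with only the libraries compared and 2 after thinning. For blue_42 against blue_14 (0) it was 1 without the filter. The cause of these shifts was not tested. Over all genes the number called was as low as 336 of 1638 for dark_14 against dark_3 and 765 of 2284 for dark_42 against dark_3, both without dark_3 a. It was as low as 110 of 801 for blue_14 against blue_3 without blue_3 b, and 258 of 1002 for blue_42 against blue_3 and 24 of 158 for blue_42 against dark_42 without blue_42 b. It was 284 of 907 for dark_42 against dark_14 without dark_14 a and 7 of 31 for blue_42 against blue_14 without blue_14 b. Without the filter it was 420 for blue_42 against dark_42, 54 for blue_3 against dark_3, 14 for blue_14 against dark_14, 1348 for blue_14 against blue_3 and 298 for blue_42 against blue_14, and for the light effects 115 at 14 against 3, 288 at 42 against 3 and 80 at 42 against 14 sessions. It was 2210 for dark_14 against dark_3 and 1270 for dark_42 against dark_14 without the filter. With only the libraries compared it was 2651 for dark_14 against dark_3 and 1417 for blue_42 against blue_3. The number called thus rose over all genes too in these fits. Thinning was chosen after seeing the data, because blue_14 b was the shallowest library.

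The labels do not say whether the letters a and b pair libraries across groups. The correlation of a minus b lay between -0.434 and 0.399 over the 15 pairs of groups and was over 0.1 in 4 of them, so the letters were not used as a pairing. With the letter as a replicate block, dark_42 against dark_14 had 2 genes called, and the counts of the other comparisons stayed within 1.5 times of those without it. With crossed letters, added after seeing the data, the counts were 0 for blue_14 against dark_14, 3 for dark_42 against dark_14 and 9 for blue_14 against blue_3.

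Scaling by total counts moved the median over all genes by under 0.1 in every comparison, and it turned the large subunit median to -0.06 for the light effect at 42 against both 3 and 14 sessions and to 0.02 for blue_14 against dark_14. The medians of both subunits for 14 or 42 against 3 sessions stayed below 0 under each scaling.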
